A study of Mus musculus with 6 samples.

Results

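The genes described here are 10 interferon-inducible GTPases, of 32287 genes counted in each library. They were taken by name: the guanylate-binding proteins (GBPs) Gbp2, Gbp3, Gbp5 and Gbp7, and the immunity-related GTPases (IRGs) Iigp1, Igtp, Irgm1, Tgtp2, Gm4951 and Gm12185. All 10 symbols were found once in every library. They were followed in single cells from the brain vessels of 3 WT and 3 ArcSwe mice, to give their levels along the vessel wall and in microglia and to compare the genotypes. The mice were untreated males of 12 months. WT mice carried the C57BL/6J genotype, and ArcSwe mice the AppArcSwe genotype, an amyloid model named after the Arctic and Swedish mutations of the amyloid precursor protein that forms plaques and deposits amyloid in vessel walls. The promoter of the transgene is not given in the sources used here. One hemisphere of the cerebrum per mouse gave microvessel fragments, which were captured on beads coupled to CD31 antibodies and dissociated into single cells. The values are unique molecular identifiers (UMIs), summed over the cells of 1 mouse and 1 cell class and scaled to 1000000 UMIs of that sum, which gives counts in CPM. The mouse App counts do not check the genotype, at 1547 ± 73.4 CPM in WT and 1521 ± 84.8 CPM in ArcSwe barrier endothelial cells (SD, n = 3 each).

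GBPs are large GTPases and IRGs smaller ones, and both are made in response to interferons. They gather on the vacuoles that intracellular bacteria and parasites live in, and help to break these open or mark them for autophagy. Promoters answer interferon gamma through GAS elements, and type I interferons through the interferon-stimulated response element (ISRE), which IRF proteins bind in both arms. Iigp1 (Irga6) and Tgtp2 (Irgb6) are effector IRGs that load onto the vacuole. Irgm1 and Igtp (Irgm3) are regulatory IRGs that sit on the cell's own membranes and hold the effectors back. Gbp2 and Gbp5 carry a lipid anchor for membranes, and Gbp5 is known for its link to inflammasomes. Gm4951 and Gm12185 are gene models of the IRG family.

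In the annotation of the mm10 genome, 8 of the 10 genes lay in clusters on chromosomes 3 and 11. Gbp5, Gbp7, Gbp3 and Gbp2 followed one another on the + strand of chromosome 3, from 142493978 to 142638008. Irgm1, Gm12185 and Tgtp2 lay on the - strand of chromosome 11, between 48861968 and 49064206, and Igtp on its + strand at 58199556 to 58207591. The annotated span of Gm12185 overlapped that of Tgtp1 on the same strand, and that of Igtp overlapped Irgm2. Of the 90-base windows in the last 500 bases of the Tgtp2 transcripts, 65.9% occurred also in Gm12185 or Tgtp1. Reads from such windows cannot be given to 1 gene, so the counts of Tgtp2 are uncertain. Of the other 9 genes, Gbp3 shared 0.375% of its windows with Gbp7 and the other 8 shared none with another gene.

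RefSeq gave a promoter window, from 250 bases before to 50 bases after the transcription start on GRCm38.p6, for 8 of the 10 genes. All 8 held the ISRE letters GAAANNGAAA on either strand. Over 32851 windows of this length the share was 3.44%, or 3.99% of 27025 genes. The GAS letters TTCNNNGAA were found in 5 of the 8 genes, against 9.55% of all genes. Both motifs stood in the same 5 genes, against 0.614% of all genes. The stretch from 170 to 11 bases before the start is shown for the 8 genes because it holds almost every one of these matches. It is written 5′ to 3′ on the strand of the gene, with the matched letters in capitals.
Gbp5, chr3:142496764-142496923, + strand: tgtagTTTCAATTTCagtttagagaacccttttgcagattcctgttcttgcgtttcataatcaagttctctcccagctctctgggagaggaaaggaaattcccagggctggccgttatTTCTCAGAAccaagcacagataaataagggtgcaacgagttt
Gbp7, chr3:142530166-142530325, + strand: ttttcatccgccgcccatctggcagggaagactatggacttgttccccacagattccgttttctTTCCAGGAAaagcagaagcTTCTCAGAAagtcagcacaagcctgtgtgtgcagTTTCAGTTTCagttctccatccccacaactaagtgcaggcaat
Gbp3, chr3:142559874-142560033, + strand: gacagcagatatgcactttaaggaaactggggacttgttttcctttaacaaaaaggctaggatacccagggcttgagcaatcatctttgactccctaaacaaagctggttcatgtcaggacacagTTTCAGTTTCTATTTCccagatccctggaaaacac
Gbp2, chr3:142620493-142620652, + strand: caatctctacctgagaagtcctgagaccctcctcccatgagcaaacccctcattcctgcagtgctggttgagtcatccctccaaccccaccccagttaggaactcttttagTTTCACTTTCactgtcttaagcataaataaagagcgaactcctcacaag
Irgm1, chr11:48871431-48871590, - strand: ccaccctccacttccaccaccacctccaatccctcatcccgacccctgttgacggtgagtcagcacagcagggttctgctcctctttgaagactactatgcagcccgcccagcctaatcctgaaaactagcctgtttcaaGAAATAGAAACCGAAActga
Gm12185, chr11:48927193-48927352, - strand: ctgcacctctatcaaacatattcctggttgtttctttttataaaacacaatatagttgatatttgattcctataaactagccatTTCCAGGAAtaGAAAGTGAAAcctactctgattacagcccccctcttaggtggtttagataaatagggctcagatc
Tgtp2, chr11:49064223-49064382, - strand: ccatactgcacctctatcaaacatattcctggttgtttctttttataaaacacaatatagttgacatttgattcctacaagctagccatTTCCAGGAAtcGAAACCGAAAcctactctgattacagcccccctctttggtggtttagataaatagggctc
Igtp, chr11:58199386-58199545, + strand: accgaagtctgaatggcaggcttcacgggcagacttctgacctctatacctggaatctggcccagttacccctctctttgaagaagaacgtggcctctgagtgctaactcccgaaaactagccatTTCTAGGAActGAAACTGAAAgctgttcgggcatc

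Of the 4 IRGs with a window, 3 shared 1 arrangement. In Gm12185, Tgtp2 and Igtp the GAS letters began 11 bases before the ISRE letters, at positions -86 and -75, -81 and -70, and -45 and -34 relative to the start. The same spacing of 11 bases was found in Irgm2 and Tgtp1, which are IRG genes outside the 10. Irgm1 differed, with 2 overlapping ISRE matches at -30 and -24 and no GAS letters in its window. The GBPs had the ISRE letters on the opposite strand, written as TTTCNNTTTC above. Gbp3 held 2 overlapping ISRE matches at -45 and -39, and Gbp2 held 1 at -59, both without GAS letters. The window of a second RefSeq start of Gbp3 held neither motif. Gbp7 held 2 GAS matches at -106 and -87 before its ISRE match at -53. Gbp5 held its ISRE match at -165 and GAS matches at -245, which lies outside the stretch shown, and -52. A match is a run of letters and not a measured binding site, and windows without a match say nothing of the factor. In the other gene lists used below, ISRE letters were found in 10 of 19 type I interferon genes, 4 of 7 other GBP and IRG genes and 3 of 14 interferon gamma targets with a window.

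**Figure D1:**
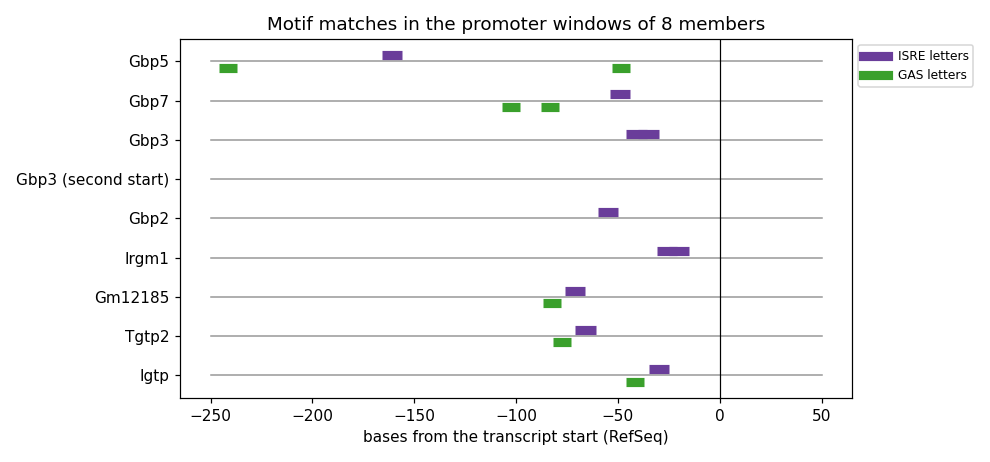
Position of the ISRE and GAS letters in the promoter windows of 8 of the genes, in bases from the transcription start (0) along each gene's own strand. Each row is 1 window, Gbp3 having a row for its second start, and each mark 1 match, with ISRE above and GAS below the line. Each of the 8 genes has an ISRE mark, and in Gm12185, Tgtp2 and Igtp the GAS mark stands 11 bases before it.

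The libraries differed in size and in the state of their microglia. They held 49059 cells and 26436229 to 59161203 UMIs each, and 44112 cells passed the cell filter, with medians of 2922 to 5542 UMIs. ArcSwe 2 was the smallest library, with 2379 cells kept. Between 46 and 142 barcodes of a library were also present in another library. Cells were clustered without the interferon genes and named from marker genes, so that each class below is to be read as cells like the type named. Barrier endothelial cells (the cells that form the blood-brain barrier) numbered 24116, once 5376 cells in which the microglial genes Cx3cr1 or Aif1 were counted had been set aside. They held 7 of 7 endothelial markers, and fenestrated endothelial cells (cells of leaky vessels, as in the choroid plexus) held 6 of 6 of theirs at 12470 to 13860 CPM in sum in WT mice, against 260 to 281 CPM in barrier cells. Many microglia lay in clusters with few ribosomal protein transcripts. These were 276 of 1034, 300 of 895 and 1402 of 1480 microglia in WT 1, WT 2 and WT 3. In ArcSwe 1, ArcSwe 2 and ArcSwe 3 they were 722 of 1051, 207 of 222 and 1665 of 2125. A sum over cells cannot tell fewer cells with a transcript from less of it per cell, and shares of cells are given further on.

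In WT mice the 10 genes together were highest in endothelial cells. Their summed level was 777 ± 29.3 CPM in venous, 732 ± 162 in fenestrated, 702 ± 74.4 in arteriolar, 655 ± 57.7 in large arterial and 584 ± 57.0 in capillary endothelial cells (SD, n = 3 mice). These neighbours in the order overlapped between mice. Below a gap came pericytes at 295 ± 36.7 CPM and T and NK cells at 291 ± 40.5 CPM. Microglia stood at 186 ± 29.2 CPM, B cells at 162 ± 27.4 CPM and smooth muscle cells at 105 ± 12.3 CPM. Barrier endothelial cells as a whole held 3.31 times the level of microglia and 5.85 times that of smooth muscle cells. Classes were built from the same cells, so these differences are descriptions and were not tested. The sums rest on many cells in some classes and few in others: 1605 to 6336 cells per mouse in barrier cells but 64 to 222 in fenestrated cells and 24 to 287 in pericytes, where 1 UMI was worth 0.0434 to 0.0983, 0.857 to 2.09 and 0.921 to 8.29 CPM.

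**Figure D2:**
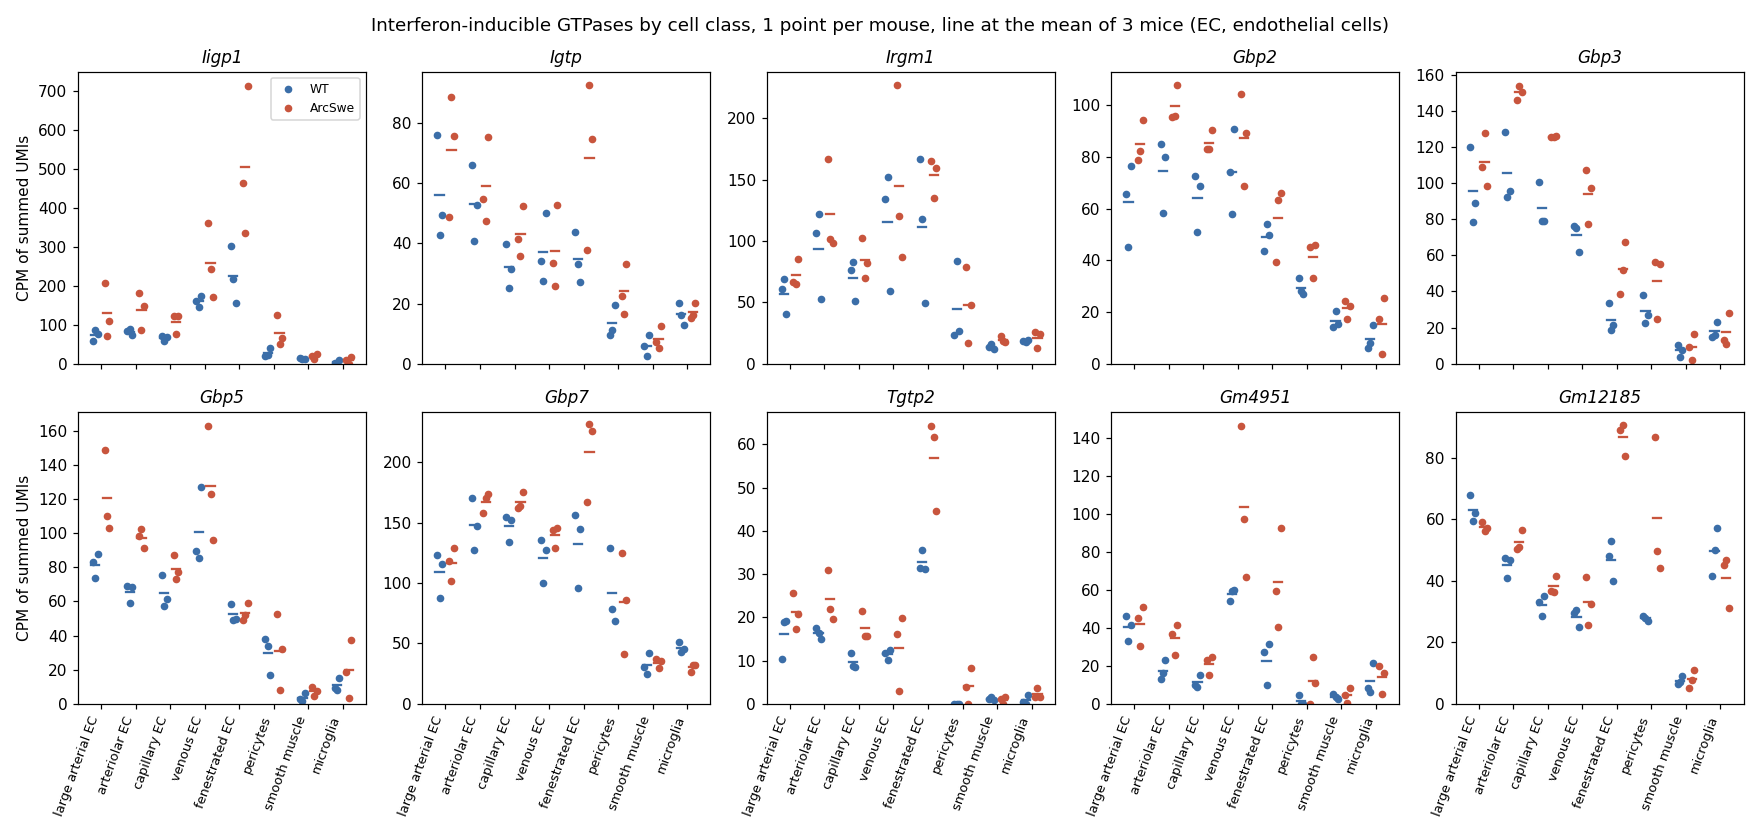
CPM of each of the 10 genes (1 panel each, linear axis from 0) in 8 cell classes, 1 point per mouse and a short line at the mean of the 3 WT or 3 ArcSwe mice. The WT means of the endothelial classes sit above that of smooth muscle cells for each gene, and microglia lie among the endothelial classes for Gm12185.

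The effector IRGs differed in level between vessel types. Iigp1 in WT mice measured 225 ± 74.2 CPM in fenestrated and 160 ± 13.8 CPM in venous endothelial cells, which overlapped between mice. Arteriolar cells followed at 82.7 ± 7.37 CPM, with no overlap with the veins, and then large arterial cells at 73.9 ± 15.3 and capillary cells at 66.4 ± 6.79 CPM. Fenestrated cells thus held 3.39 times and venous cells 2.41 times the capillary level of Iigp1. Outside the endothelium its level was 27.6 ± 12.1 CPM in pericytes, 13.01 ± 2.23 CPM in smooth muscle cells and 4.08 ± 4.07 CPM in microglia, and barrier cells held 18.2 times the level of microglia. Tgtp2 was also highest in fenestrated cells, at 32.7 ± 2.50 CPM, with no overlap with arteriolar cells at 16.3 ± 1.27 CPM. Capillary cells were at 9.60 ± 1.78 CPM, microglia at 0.775 ± 1.05 CPM, and no UMI of Tgtp2 was counted in the pericytes of the 3 WT mice, where 1 UMI is worth 2.44 to 5.60 CPM.

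The regulatory IRGs overlapped between neighbouring vessel classes. Igtp was at 56.1 ± 17.6 CPM in large arterial, 53.2 ± 12.6 in arteriolar and 37.2 ± 11.6 in venous cells, with overlapping ranges down to capillary cells at 32.2 ± 7.34 CPM. Microglia at 16.5 ± 3.55 CPM and smooth muscle cells at 5.88 ± 3.46 CPM lay below. Irgm1 was at 115 ± 49.2 CPM in venous, 112 ± 58.9 in fenestrated, 93.8 ± 36.3 in arteriolar and 70.1 ± 16.6 in capillary cells, and its spread between mice was wide enough that the ranges of neighbouring classes overlapped down to microglia at 18.5 ± 0.986 CPM. The lowest WT value was that of WT 3 in venous, fenestrated, arteriolar and capillary cells.

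The GBPs did not share 1 order. Gbp3 was at 105.5 ± 19.9 CPM in arteriolar, 95.8 ± 21.8 in large arterial and 86.1 ± 12.4 in capillary cells, and at 71.2 ± 8.16 CPM in venous cells, which did not overlap with capillaries. In fenestrated cells it was at 24.4 ± 7.94 CPM, or 0.283 times the capillary level, which set Gbp3 apart from Iigp1 and Tgtp2. Gbp5 was instead highest in venous cells at 101 ± 22.9 CPM and in large arterial cells at 81.5 ± 7.30 CPM, above arteriolar cells at 65.6 ± 5.48 CPM with no overlap. Gbp2 lay between 62.4 and 74.5 CPM in the 4 barrier zones and at 49.2 ± 5.12 CPM in fenestrated cells. Gbp7 was even along the vessels, at 148 ± 21.5 CPM in arteriolar, 147 ± 11.2 in capillary, 132 ± 32.3 in fenestrated, 121 ± 18.6 in venous and 109 ± 18.7 in large arterial cells. In microglia Gbp7 was at 46.4 ± 3.97 CPM, Gbp3 at 18.0 ± 4.22, Gbp5 at 10.8 ± 3.69 and Gbp2 at 9.60 ± 4.75 CPM.

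The 2 gene models had patterns of their own. Gm4951 (60212080 to 60247820) lies beside Iigp1 (60376027 to 60392634) on chromosome 18, in mm10. Gm4951 was highest in venous cells, at 57.9 ± 3.24 CPM, and then in large arterial cells, at 40.4 ± 6.60 CPM. Neither overlapped the next class in the order, and they were 5.13 and 3.58 times the capillary level of 11.3 ± 3.39 CPM. Microglia held as much Gm4951 as capillaries, at 12.0 ± 8.10 CPM. Gm12185 was at 63.0 ± 4.34 CPM in large arterial cells, with no overlap with the next class, which was microglia at 49.5 ± 7.83 CPM. Fenestrated cells at 46.9 ± 6.58 and arteriolar cells at 45.0 ± 3.61 CPM overlapped with microglia, and capillary cells at 32.2 ± 3.37 and venous cells at 28.3 ± 2.85 CPM lay below. Gm12185 was the gene of the 10 that was lower in barrier cells than in microglia, at 0.712 times.

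Endothelial transcripts were also counted in the other classes, and were set beside these levels. The 7 endothelial markers summed to 17780 to 19890 CPM in WT barrier cells. Relative to the same mouse, pericytes held 32.7 to 39.8% of this sum, and 41.9 to 54.6% of the summed level of the 10 genes. Smooth muscle cells held 4.93 to 8.58% of the endothelial markers and 15.6 to 19.4% of the 10 genes. Microglia held 2.71 to 15.5% of the markers and 25.6 to 36.3% of the genes. Iigp1 in microglia, at 1.30 to 11.2% of the barrier level, overlapped the span of the endothelial markers. So did Tgtp2 at 0 to 19.0%, Gbp2 at 7.98 to 20.5%, Gbp5 at 12.6 to 21.7% and Gbp3 at 14.5 to 28.0%. The upper end of the marker span was WT 3, with 2758 CPM of the markers in microglia against 628 and 503 CPM in WT 1 and WT 2. Mouse by mouse, the percents of Gbp2, Gbp5 and Gbp3 lay above that of the markers in each WT mouse. Those of Iigp1 and Tgtp2 did not in each mouse. Irgm1 at 19.0 to 37.4%, Gbp7 at 30.9 to 33.0%, Igtp at 34.8 to 57.9%, Gm4951 at 50.7 to 102% and Gm12185 at 112 to 159% lay above that span. In pericytes Gm12185 stood at 71.7 to 89.0% of barrier cells, above the markers, while Gbp3 at 27.8 to 36.6% overlapped them. The part of endothelial transcripts in the pericyte values was not tested.

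**Figure D3:**
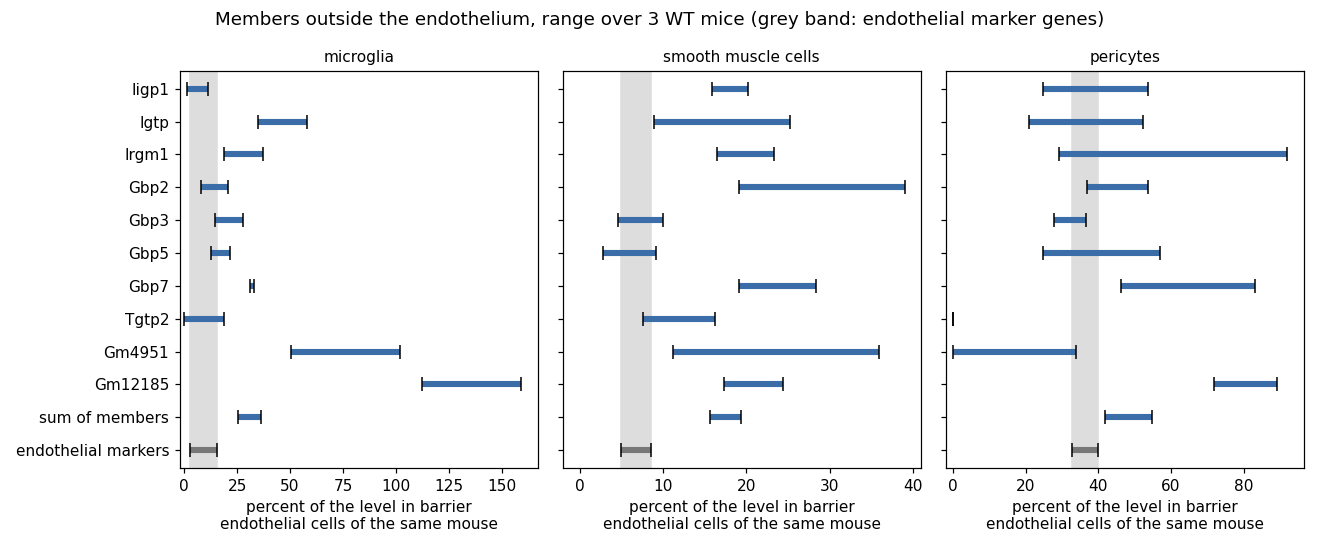
Level of each of the 10 genes in pericytes, smooth muscle cells and microglia as a percent of the barrier endothelial level of the same mouse, as the range over the 3 WT mice, with the range of the summed endothelial markers as a grey band. Iigp1 in microglia (1.30 to 11.2%) overlaps the span of the endothelial markers (2.71 to 15.5%), as do Tgtp2, Gbp2, Gbp5 and Gbp3. Compared within each mouse, Gbp2, Gbp5 and Gbp3 lie above the markers in the 3 WT mice. Gm12185 in microglia (112 to 159%) lies above the barrier level.

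Within barrier endothelium the genes were spread over many cells. After each cell was thinned to 2000 UMIs, 64.8, 60.1 and 59.5% of barrier cells held a UMI of at least 1 of the 10 genes in WT 1, WT 2 and WT 3. At least 3 of them were held by 11.3, 8.68 and 9.08%. The share of cells with a given gene ran from 22.3 to 25.3% for Gbp7, 13.8 to 17.9% for Gbp3 and 10.0 to 11.5% for Iigp1, to 1.80 to 2.72% for Tgtp2 in WT mice. Smooth muscle cells held at least 1 in 12.99 to 15.4% and microglia in 25.3 to 30.2% of cells at the same depth, where 191, 205 and 1248 shallower microglia of WT 1, WT 2 and WT 3 were left out and 232 cells of WT 3 remained. Thinning left out 304 to 605 barrier cells per WT mouse with fewer UMIs, and the median of the cells kept was 3741 to 4542 UMIs before thinning. Without thinning the share with at least 1 was 73.5 to 82.8%. In each of the 6 mice, barrier cells with a UMI of Iigp1 held at least 2 of the other 9 genes in 33.1 to 49.2% of cases, against 19.7 to 28.9% of cells without, and the same direction was found for each of the 10 genes in each mouse. Zones were pooled here, so these shares do not separate zone from cell.

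Cells that carried type I interferon transcripts carried more of the 10 genes. Barrier cells with at least 3 of 23 genes of a type I interferon list made up 45.7, 36.6 and 41.8% of thinned cells in WT 1, WT 2 and WT 3. The 10 genes summed to 880, 790 and 809 CPM in them and to 506, 452 and 428 CPM in the remaining cells. Each of the 10 genes was higher in these cells in all 6 mice, including Gm12185. The share of such cells was 45.3 to 61.9% in arteriolar and 21.3 to 35.7% in venous cells of WT mice, so it did not follow the order of the summed level of the 10 genes, in which veins came first. The share is a cut through a range and not a cell type.

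Over 36 sums of 6 classes and 6 mice, the genes most like the mean of the 10 were taken from 11128 genes with a mean of at least 5 CPM. The 6 classes, each with at least 50 cells in every mouse, were large arterial, arteriolar, capillary and fenestrated endothelial cells, smooth muscle cells and microglia. Venous cells and pericytes had too few cells in ArcSwe 2 (44 and 24) and were left out. The closest was Gbp4, another GBP, with a Pearson r of 0.977. Ifi47, an interferon-induced IRG family gene, followed with 0.970, then Pecam1, the CD31 gene used to capture the vessels, with 0.967 and Stat2, which carries the type I interferon signal, with 0.966. Acvrl1 and Eng, receptors of the BMP pathway in endothelium, had 0.964 and 0.963, and Apol10b, Limk2, Lpar4 and Icam2 had 0.960 to 0.961. The sums share libraries and depth, so these values describe a shared class pattern and carry no p. Among the 10 themselves, r ran from 0.412 for Gbp2 and Gm12185 to 0.916 for the neighbours Gbp3 and Gbp5, and each gene's r with the mean of the others from 0.702 for Gm12185 to 0.934 for Gbp5.

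ArcSwe and WT barrier endothelial cells were then compared, as the study did to ask how the vessel wall responds to amyloid. Fitted log2 fold changes were above 0 for 10 of 10 genes, at a median of 0.41 against -0.0022 over the 13473 genes tested. No gene of the 10 passed an adjusted p of 0.05 (edgeR's quasi-likelihood test, Benjamini-Hochberg adjusted p = 0.991 for each of them), and neither did any other gene (0%). At an unadjusted p under 0.05 stood 8 of the 10, against 4.38% of the genes tested. In 7 of the 10 the ArcSwe mice all lay above the WT mice, against 3.44% of genes in that direction and 7.47% in the other. With DESeq2, Gbp3 passed (log2 fold change 0.54, adjusted p = 0.0485), as 1 of 13 genes called of 13472. The genes were named with results of these mice known, so these counts are a description.

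The effector IRGs and Gm4951 had the larger fold changes. Iigp1 measured 77.0, 67.8 and 77.2 CPM in WT 1 to 3, and 152, 84.0 and 129 CPM in ArcSwe 1 to 3. ArcSwe 2 stood near the WT mice and the other ArcSwe mice well above, so that the log2 fold change was 0.75 ± 0.19 (SE). Tgtp2 was at 12.5, 10.2 and 10.4 CPM in WT and 22.8, 16.2 and 16.9 CPM in ArcSwe mice (log2 0.79 ± 0.17). Its groups did not overlap, within the limit on its counts given above. Gm4951 was at 14.1, 12.6 and 20.9 CPM in WT and 34.0, 20.6 and 31.6 CPM in ArcSwe mice (log2 0.91 ± 0.22), and ArcSwe 2 fell just under WT 3. Gm12185 was at 36.9, 31.5 and 37.4 against 40.4, 39.0 and 44.3 CPM (log2 0.26 ± 0.087), a small step with no overlap.

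The regulatory IRGs overlapped between genotypes. Irgm1 measured 82.0, 91.5 and 51.6 CPM in WT and 118, 75.8 and 85.3 CPM in ArcSwe mice (log2 0.33 ± 0.25). Igtp measured 45.3, 28.2 and 37.3 against 43.4, 39.3 and 58.0 CPM (log2 0.38 ± 0.19). WT 2 was the highest WT mouse for Irgm1 and the lowest for Igtp.

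Of the GBPs, Gbp3 had the tightest ArcSwe values. It measured 104, 80.7 and 81.6 CPM in WT mice and 127 CPM in each of the 3 ArcSwe mice (log2 0.54 ± 0.11). Gbp2 was at 74.2, 52.2 and 72.9 against 86.3, 83.9 and 94.4 CPM (log2 0.44 ± 0.12), and Gbp5 at 75.5, 59.1 and 68.8 against 97.6, 80.5 and 82.1 CPM (log2 0.39 ± 0.12). Both were apart between genotypes, with WT 2 the lowest of the 6 mice. Gbp7 was also apart, but by less, at 155, 130 and 148 against 157, 160 and 170 CPM (log2 0.20 ± 0.085). Microglial markers, of which 6 of 8 were detected and Cx3cr1 and Aif1 stand at 0 through the filter, summed to 140 to 451 CPM in WT and 218 to 571 CPM in ArcSwe barrier cells, and 7 of 7 endothelial markers to 17780 to 19890 and 18990 to 20530 CPM. The part of the microglial transcripts in the differences was not tested.

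**Figure D4:**
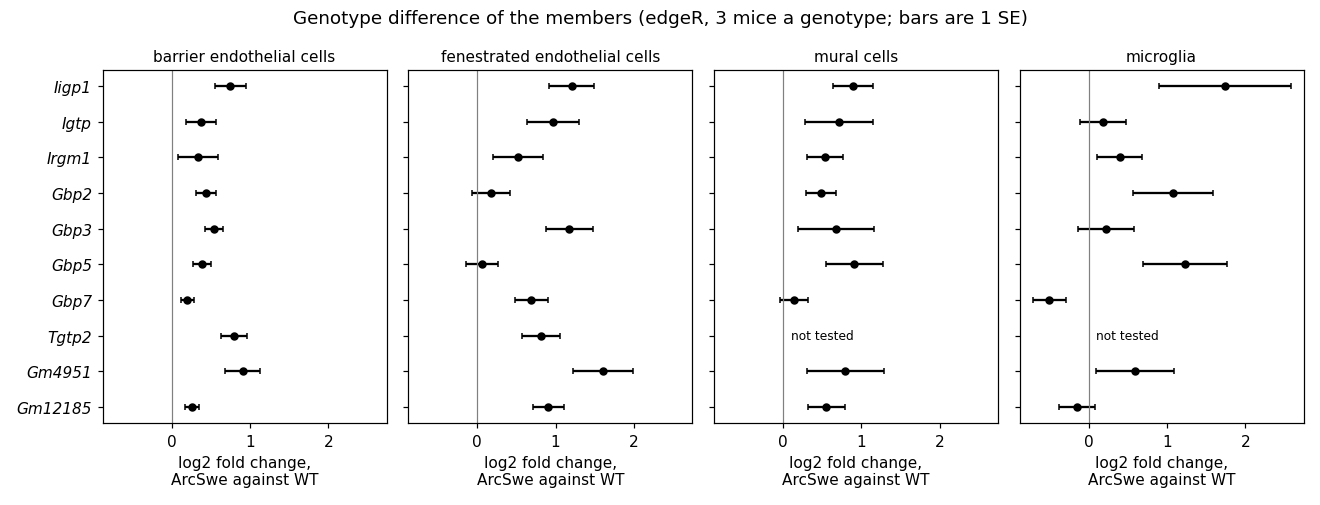
Log2 fold change of ArcSwe over WT with its SE for the 10 genes in barrier endothelial, fenestrated endothelial, mural and microglial cells (edgeR, 3 mice per genotype), with a line at 0, no difference. Tgtp2 was not tested in mural cells and microglia. Values are above 0 for 10 of 10 genes in barrier cells, and none of them passed an adjusted p of 0.05.

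By zone, the direction was shared and the size varied. Capillary cells had 10 of 10 genes above 0 (median 0.45), 9 at an unadjusted p under 0.05, against 4.68% of genes, and 6 genes apart upwards, against 3.51% of genes (7.64% downwards), with a lowest adjusted p of 0.726 by edgeR. DESeq2 called 3 of them: Gbp3 (adjusted p = 0.0126), Iigp1 (0.0412) and Tgtp2 (0.0464), among 22 genes called of 12157. Arteriolar cells had 10 of 10 above 0 (median 0.50), 6 at an unadjusted p under 0.05, against 3.92% of genes, and 6 apart upwards, against 3.49% (6.38% downwards). The lowest adjusted p, 0.443, was that of Gbp5, at 69.1, 59.3 and 68.4 CPM in WT and 98.1, 102 and 91.5 CPM in ArcSwe mice. Gm4951 in arterioles was at 13, 16.1 and 22.9 against 36.8, 25.6 and 41.4 CPM (log2 1.07 ± 0.22), again with no overlap. Without a filter on low counts edgeR called Iigp1, Gbp3, Gbp5 and Gm4951 in arteriolar cells, among 85 genes called of 18574.

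Venous and large arterial cells were fewer and more uneven. In veins 10 of 10 genes were above 0 (median 0.39), 3 stood at an unadjusted p under 0.05, against 3.64% of genes, and 2 were apart upwards, against 3.52% (5.5% downwards). Gm4951 there was at 54.2, 59.3 and 60.1 CPM in WT and 146, 97.2 and 66.6 CPM in ArcSwe mice (log2 0.88 ± 0.27), and it was called without the filter on low counts, as 1 of 34 genes called of 16415. Iigp1 was at 160, 146 and 174 against 361, 243 and 171 CPM, so that ArcSwe 3 lay among the WT mice. In large arterial cells 9 of 10 were above 0 (median 0.37) and none was called, against 0.0119% of genes (1 of 8372). At an unadjusted p under 0.05 stood 3 of the 10, against 3.62% of genes, 2 were apart upwards, against 3.05% of genes, and Gm12185 was apart downwards, against 6.09%. Gbp5 was at 83.2, 73.5 and 87.8 against 149, 110 and 103 CPM (log2 0.62 ± 0.19). Iigp1 was at 57.5, 87.7 and 76.6 against 207, 71.4 and 111 CPM (log2 0.98 ± 0.29), where ArcSwe 1 stood out, and it was called without the filter on low counts, as 1 of 27 genes called of 15986. With the cells that held microglial UMIs kept in the class, its log2 fold change was -0.071.

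Fenestrated endothelial cells had the larger values. Fold changes were above 0 for 10 of 10 genes, at a median of 0.86 against 0.00082 over 8029 genes, 7 stood at an unadjusted p under 0.05, against 4.17% of genes, and 6 were apart upwards, against 3.76% (5.87% downwards). The lowest adjusted p was 0.911 by edgeR, and 0 genes of the 8029 passed (0%). Iigp1 measured 303, 217 and 155 CPM in WT and 464, 335 and 714 CPM in ArcSwe mice (log2 1.20 ± 0.29). WT 1, the highest WT mouse, and ArcSwe 2, the lowest ArcSwe mouse, lay closer together than the WT mice among themselves. Gm4951 measured 27.1, 9.82 and 31.3 against 59.1, 40.5 and 92.6 CPM (log2 1.60 ± 0.38). Gbp3, low in these cells, measured 33.4, 18.4 and 21.3 against 38.6, 52.0 and 67.3 CPM (log2 1.17 ± 0.30). Both were apart between genotypes, as were Gm12185, at 48.0, 52.8 and 39.8 against 89.1, 90.6 and 80.6 CPM (log2 0.91 ± 0.20), Tgtp2 and Gbp7. Gbp5 (log2 0.06 ± 0.20) and Gbp2 (0.17 ± 0.24) overlapped, unlike in barrier cells. Without the filter on low counts edgeR called Iigp1, Gbp3, Gm4951 and Gm12185, among 69 genes called of 16528. Erythroid markers, 5 of 5 detected, summed to 342 to 2204 CPM in WT and 344 to 12890 CPM in ArcSwe fenestrated cells, and their part in the differences was not tested.

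Mural cells, the pericytes and smooth muscle cells of the vessel wall, were low in these genes in both genotypes. Of 9 genes tested 9 were above 0 (median 0.67 against 0.0067 over 11167 genes, and 0.31 without ArcSwe 3 to 0.89 without ArcSwe 2), 5 stood at an unadjusted p under 0.05, against 2.82% of genes, and none was apart, against 3.18% upwards and 5.26% downwards. The summed level was 120, 108 and 131 CPM in WT and 176, 110 and 204 CPM in ArcSwe mice, with ArcSwe 2 among the WT mice. Iigp1 was at 15.7, 12.0 and 15.1 against 28.5, 15 and 32.1 CPM (log2 0.89 ± 0.25), and Gbp5 at 5.35, 3.87 and 7.32 against 13.1, 4.80 and 11.6 CPM (log2 0.91 ± 0.36). The 7 of 7 endothelial markers detected summed to 1270 to 2062 CPM in WT and 897 to 3294 CPM in ArcSwe mural cells, and their part was not tested. In pericytes 4 genes could be tested, of which 2 stood at an unadjusted p under 0.05, against 2.97% of genes, and Iigp1 at 19.0, 22.4 and 41.5 against 125, 49.8 and 65.4 CPM (log2 1.40 ± 0.40) and Gm12185 at 28.6, 28.0 and 26.8 against 86.7, 49.8 and 44.2 CPM (log2 1.05 ± 0.39) were apart upwards, against 3.55% of genes (5.03% downwards). ArcSwe 2 gave 24 pericytes, so its Iigp1 value rests on few UMIs of 8.29 CPM each. In smooth muscle cells 9 of 9 genes were above 0 (median 0.53), 3 stood at an unadjusted p under 0.05, against 3.03% of genes, and 1 was apart upwards, against 3.52% (5.65% downwards). This was Irgm1, at 13.5, 16.2 and 12.0 against 22.6, 18.1 and 17.5 CPM (log2 0.53 ± 0.21). The difference of the genotype effect between mural and barrier cells was at an unadjusted p under 0.05 for 0 of 10 genes, against 3.52% of genes.

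Fitted fold changes in microglia were mostly above 0, but the genotypes overlapped for each tested gene except Gbp7. Of 9 genes tested 7 were above 0, at a median of 0.40 (0.26 without ArcSwe 1) against -0.024 over 11090 genes, and 1 stood at an unadjusted p under 0.05, against 8.21% of genes. None passed the adjusted p, against 0.0541% of genes, and none lay apart upwards, against 5.18%. Iigp1 was at 2.69, 0.881 and 8.66 CPM in WT and 10.5, 0 and 17.0 CPM in ArcSwe mice (log2 1.74 ± 0.84), where ArcSwe 2 had 222 microglia and 0 UMIs of it at 1.80 CPM for 1 UMI. Gbp5 was at 9.50, 7.93 and 14.95 against 18.6, 3.60 and 37.1 CPM (log2 1.23 ± 0.54), and Gbp2 at 5.92, 7.93 and 14.95 against 17.3, 3.60 and 25.4 CPM (log2 1.08 ± 0.51). In each of these genes ArcSwe 2 was the lowest of the 6 mice and WT 3, with most of its microglia in the low-ribosomal clusters, the highest of the WT mice. Endothelial markers in microglia summed to 628, 503 and 2758 CPM in WT and 746, 385.5 and 2270 CPM in ArcSwe mice. Their part in these values was not tested. Gbp7 and Gm12185 were below 0. Gm12185 was at 41.4, 50.0 and 57.1 against 45.2, 46.8 and 31.0 CPM (log2 -0.15 ± 0.23), and its groups overlapped. Gbp7 was at 50.7, 42.9 and 45.7 against 26.0, 32.4 and 32.0 CPM (log2 -0.50 ± 0.21, adjusted p = 0.588 by edgeR), with all ArcSwe mice below, as for 14.8% of genes. Its effect differed from that in barrier cells by -0.76 ± 0.20 (log2), at an adjusted p of 0.798 by edgeR, and it was the 1 gene of the 10 at an unadjusted p under 0.05 in that test, against 6.17% of genes.

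Low-ribosomal clusters bore on the microglial values. Without them 0 of the genes were called with all 6 mice, beside 237 of 9911 genes in all, and ArcSwe 2 was left with 15 cells. Gbp5 in the remaining microglia was at 9.52, 8.08 and 2.38 CPM in WT and 23.0, 0 and 62.7 CPM in ArcSwe mice. Gbp7 there was at 52.8, 44.2 and 45.2 CPM in WT and 24.4, 53.1 and 28.1 CPM in ArcSwe mice. Its groups thus overlapped, with ArcSwe 2, on 7 UMIs, above the WT mice. When 1 mouse was left out as well, edgeR called 3 genes without WT 3 (Iigp1, Gbp5 and Gm4951), 3 without ArcSwe 2 (Iigp1, Gbp2 and Gbp5), 2 without ArcSwe 1 (Gbp2 and Gbp5) and none without another mouse. Over all genes these fits called 536 of 10233, 206 of 10442 and 604 of 10182. In all microglia 4 of 9 genes were apart upwards without ArcSwe 2, against 8.36% of genes, and 0 of 9 when any of the other 5 mice was left out, against 5.93 to 18.1%.

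Shares of barrier cells pointed the same way as the sums. At 2000 UMIs per cell, 72.2, 70.4 and 70.2% of cells in ArcSwe 1, ArcSwe 2 and ArcSwe 3 held a UMI of at least 1 of the 10 genes, each above the 59.5 to 64.8% of the WT mice. At least 3 genes were held by 15.7, 13.5 and 15.5% of ArcSwe and 8.68 to 11.3% of WT cells. Between 79 and 1409 shallower cells per ArcSwe mouse were left out, and the median of the cells kept was 3330 to 5723 UMIs before thinning. Barrier cells with at least 3 type I interferon genes made up 49.2, 41.7 and 55.5% in ArcSwe mice, which overlapped with WT. In these cells the 10 genes summed to 1067, 1003 and 1022 CPM in ArcSwe against 790 to 880 CPM in WT mice, and in the remaining cells to 634, 579 and 568 CPM against 428 to 506 CPM, so the genotypes were apart in both kinds of cells. In fenestrated cells the shares with at least 1 gene were 71.7 to 84.8% in ArcSwe and 54.4 to 77.9% in WT mice and overlapped.

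**Figure D5:**
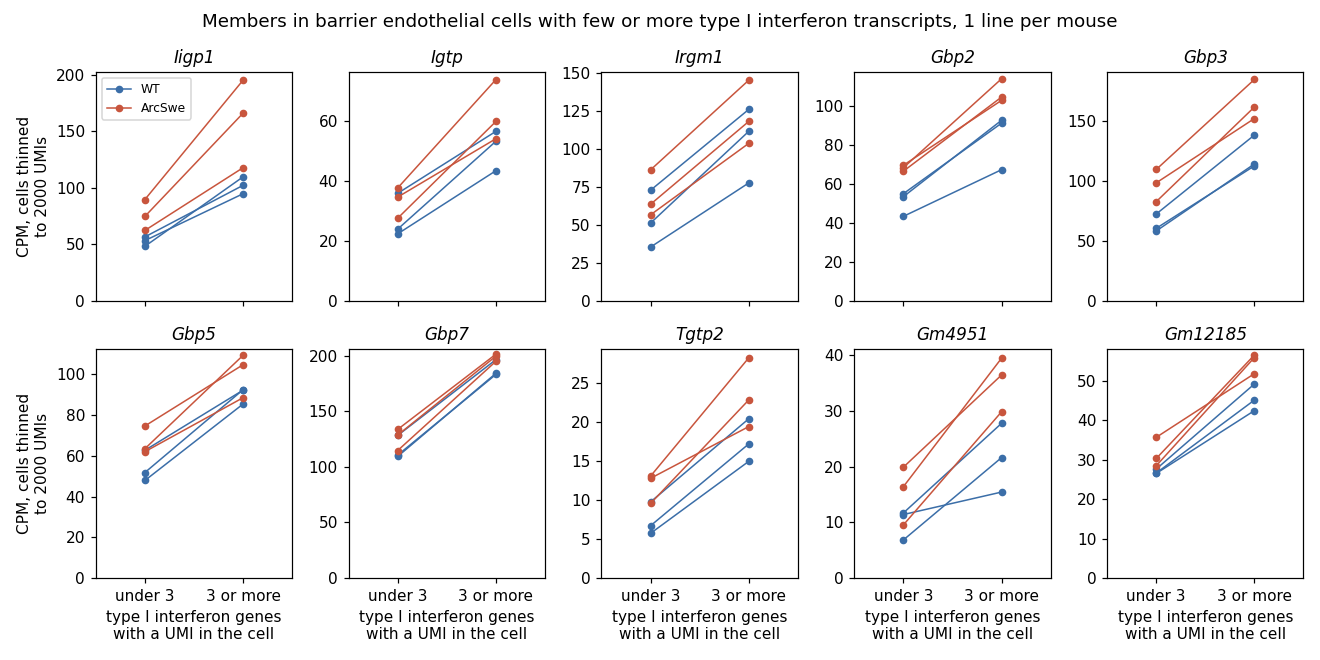
CPM of each of the 10 genes (1 panel each) in barrier endothelial cells with under 3 and with at least 3 type I interferon genes, 1 line per WT or ArcSwe mouse, after thinning to 2000 UMIs per cell. Each line rises from the first kind of cell to the second, and the ArcSwe mice lie above the WT mice in both kinds for Iigp1, Gbp2, Gbp3 and Gm12185. The share of all genes apart in this way was not counted in these kinds of cells.

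The rest of the interferon pathway was read from lists. Of 15 other GBP and IRG genes counted, 8 could be tested in barrier cells, and 7 were above 0 (median 0.39). At an unadjusted p under 0.05 stood 3 of them, against 4.38% of genes, and 2 were apart upwards, against 3.44%. Gbp4 measured 61.2, 36.7 and 59.2 CPM in WT and 69.8, 65.7 and 72.2 CPM in ArcSwe mice (log2 0.44 ± 0.16), with no overlap. Irgm2, the remaining regulatory IRG, measured 51.9, 39.0 and 53.4 against 51.3, 42.8 and 56.4 CPM (log2 0.095 ± 0.13). It thus behaved like Igtp and Irgm1 in that its groups overlapped. Gbp6 had a log2 fold change of 0.52 ± 0.23, Tgtp1 of 0.51 ± 0.26 and Gbp9 of 0.16 ± 0.16. In fenestrated cells 7 of 7 were above 0 (median 0.93) and 6 stood at an unadjusted p under 0.05, against 4.17% of genes.

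Upstream genes had a lower median log2 fold change than the GTPases in barrier cells. Of 18 interferon signalling genes tested, 14 were above 0, at a median of 0.095 and a range of -0.11 to 0.70. At an unadjusted p under 0.05 stood 4 of them, against 4.38% of genes, and 3 were apart upwards, against 3.44%. The receptor chains of interferon gamma, Ifngr1 (log2 0.086) and Ifngr2 (-0.066), and their kinase Jak2 (0.028) were near 0. Irf1, a transcription factor that binds the ISRE, measured 225, 266 and 135 against 314, 180 and 176 CPM (log2 0.12 ± 0.31), and its WT level was 519 ± 204 CPM in veins against 209 ± 66.8 CPM in barrier cells as a whole. Ifngr1 at baseline was at 70.3 ± 5.29 CPM in barrier, 221 ± 26.6 in fenestrated and 422 ± 84.7 CPM in microglia, so its order across these classes was unlike that of the summed GTPases.

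Other interferon-induced genes were read in the same way. In barrier cells 22 of 23 type I interferon genes were above 0 (median 0.32, 9 at an unadjusted p under 0.05, 4 apart), as were 18 of 18 interferon gamma targets (median 0.41, 10 and 5), against 4.38% of genes at that p and 3.44% apart upwards. In microglia the type I genes had a median of 1.80, with 22 of 23 above 0, 16 at an unadjusted p under 0.05 and 13 apart, against 8.21% of genes at that p and 5.18% apart upwards, and a lowest adjusted p of 0.067 by edgeR. The GTPases there had a median of 0.40, and the difference between the lists was not tested. Interferon gamma targets in microglia had 14 of 16 above 0 (median 0.55), and other GBP and IRG genes 7 of 8 (median 0.48). Genes of the autophagy machinery that guides these GTPases to vacuoles had 4 of 12 above 0 in barrier cells (median -0.017) and 1 of 12 in microglia (median -0.24). No gene of the 5 lists passed an adjusted p of 0.05 in any class.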

How the data were processed

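Microvessel cells of 3 WT and 3 ArcSwe mice were sequenced as 1 library per mouse. The deposited values are UMI counts, which the authors obtained with Cell Ranger 7.0.0 on mm10 with mouse Clec7a and human NOTCH3 added and did not normalize. Other samples were not analysed here.

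Cells with 500 to 4500 genes and under 10% mitochondrial counts were kept. Members and interferon lists were left out of the 2000 variable genes. Cells were clustered (30 components, 20 neighbours, resolution 1; scanpy 1.11.5, leidenalg 0.10.2, Python 3.11.15) and named from at least 3 detected markers of a type, and 1688 cells in mixed clusters stayed unnamed. Of the barrier endothelial cells, 498 fell in no zone. Doublets were not removed in the main results. As the study did, tests left out genes for ribosomal and mitochondrial proteins, pseudogenes and Rik genes. UMIs were summed per mouse and class (at least 10 cells) and tested with edgeR 4.0.16 in R 4.3.3 (filterByExpr, TMM, glmQLFTest, genotype only), adjusting p-values by Benjamini-Hochberg across every gene of the fit, at a threshold of 0.05. Differences of genotype effects between classes came from an interaction term in a fit with mouse as block. DESeq2 1.42.0 was an alternative. The tests were tried on simulated counts. Motif letters were searched on both strands of RefSeq windows. Totals were 26436229 to 59161203 UMIs per library, and intervals of counting error were not used, since mice give the spread.

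All 10 members were named in each class where they were tested, with Irgm2, Tgtp1, Gbp4, Gbp6, Gbp9, Ifngr1, Ifngr2, Irf1 and Jak2 of the lists (1 further gene named in the rule is not reported here), any list gene with an adjusted p under 0.05, and the 10 genes most like the members. Members and lists were chosen with earlier results of these data known. The replicates are separate mice.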

Additional observations from a re-analysis of the deposited data

Results flagged for a closer look

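Gbp7 moved in opposite directions in 2 classes. Its log2 fold change was -0.502 in microglia, where the 3 ArcSwe mice lay below the 3 WT mice, and 0.201 in barrier endothelial cells, where they lay above. Of all genes, 14.8% lay below in microglia and 3.44% above in barrier cells in this way. Without low-ribosomal clusters ArcSwe 2, on 15 microglia, lay above the WT mice for Gbp7. The difference of the effects was tested as an interaction and did not pass (adjusted p = 0.798 by edgeR). Its log2 fold change was above 0 in the other classes in which it was tested.

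Gm12185 lay below WT in the 3 ArcSwe mice in large arterial endothelial cells (log2 fold change -0.0862), at 59.1, 56.3 and 57.1 CPM against 67.8, 59.3 and 61.9 CPM, and above WT in the 3 ArcSwe mice in barrier endothelial cells (0.257). In large arterial cells the closest mice were WT 2 and ArcSwe 1, where 1 UMI was worth 2.37 and 0.730 CPM, more than the gap between them. The unadjusted p there was 0.645 by edgeR's quasi-likelihood test, and 6.09% of genes lay below WT in this way. The difference between the 2 classes was not tested, and both classes share cells.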

How the results depend on the processing

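In the main fit 0 of the 10 genes were called in each class. DESeq2 called 1 gene in barrier and 3 in capillary cells. Without the filter on low counts edgeR called 1 in large arterial, 4 in arteriolar, 1 in venous and 4 in fenestrated cells, while over all genes it then called 27, 85, 34 and 69 in place of 1, 0, 0 and 0; the cause was not tested. In microglia without low-ribosomal clusters, leaving out 1 mouse as well gave 0 to 3 calls. The median log2 fold change of the 10 genes in barrier cells was 0.41 to 0.54 with each mouse left out and 0.41 to 0.42 otherwise. In large arterial cells it was 0.048 with microglial UMIs kept, 0.26 at a resolution of 2, 0.23 with interferon lists kept in clustering, and 0.17 to 0.46 with each mouse left out. With each mouse left out it was 0.0094 to 0.94 in pericytes, 0.12 to 0.75 in smooth muscle cells, 0.31 to 0.89 in mural cells and, with low-ribosomal clusters in or out, 0.26 to 0.88 in microglia.

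Signs turned in few single values. In large arterial cells with microglial UMIs kept, Iigp1 was at -0.071, Gbp3 at -0.0011 and Gm4951 at -0.34. Gm4951 there was at -0.054 at a resolution of 2 and -0.10 with interferon lists kept, and Gm12185 at 0.064 under the stricter cell filter. Gbp7 in mural cells was at -0.014 without the highest doublet scores. Without low-ribosomal clusters the microglia against barrier difference was 0.55 for Irgm1 and 0.13 for Gm4951. With each mouse left out, venous Igtp ranged from -0.25 to 0.37, venous Irgm1 from -0.17 to 0.72, fenestrated Gbp5 from -0.018 to 0.14, microglial Igtp from -0.0010 to 0.56, Gbp3 from -0.39 to 0.79 and Gm12185 from -0.39 to 0.069. The difference of effects ranged from -0.32 to 0.16 for Irgm1 and from -0.076 to 1.09 for Gbp5. Of the single-gene values under alternatives, 1314 kept direction and side of the threshold, 22 passed it and 21 turned sign.

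Baseline sums moved to 735 CPM in venous, 104 in mural and 87.8 in smooth muscle cells with interferon lists kept in clustering, and to 107 in mural cells and 219.5 CPM in pericytes as a mean over cells. Shares at 1000 UMIs and without thinning were 40.9 and 78.5% (at least 1) and 2.44 and 31.2% (at least 3) in barrier cells, 14.1 and 39.3% (at least 1) and, without thinning, 3.88% (at least 3) in microglia, and 9.15 and 33.8% and 0 and 3.92% in mural cells.

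The labels number the mice 1 to 3 in both genotypes. Mice were correlated across genes on log CPM, after the mean of the mouse's genotype had been subtracted for each gene. These are correlations of deviations from the genotype mean and not of whole profiles. Same-numbered mice correlated at 0.082, 0.164 and 0.363 in barrier cells, and differently numbered mice at -0.323 to 0.269. In microglia same-numbered mice correlated at 0.327, 0.069 and 0.326, and differently numbered mice at -0.346 to 0.273. The labels do not call the numbers pairs, so they were not taken as pairs in the main fit. Whether same-numbered mice were processed together was not tested. With the replicate number as a block, the barrier median was 0.42, 0 of the 10 genes were called in each class, and microglia had 72 genes called in place of 6. Depth limits the classes with few cells: 1 UMI was worth up to 8.29 CPM in pericytes.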

Other observations

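An unnamed cluster of 122 cells (17 to 27 per mouse) held pericyte, smooth muscle and fibroblast markers, with Rgs5, Gpc6, Cald1, Vtn and Mgp among its leading genes. Its Iigp1 level was 55.1, 623 and 197 CPM in WT and 521, 115 and 357 CPM in ArcSwe mice, and its Gm4951 level was 27.6, 288 and 90.5 against 36.5, 26.5 and 106 CPM. Both ranged more widely within a genotype than in the named classes, and no order of the genotypes was seen.

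Lymphocytes were not compared by a test. Iigp1 in B cells was at 2.44 to 11.1 CPM in WT and 9.77 to 72.0 CPM in ArcSwe mice, and in T and NK cells at 22.4 to 41.8 against 39.9 to 150 CPM. Both pairs of ranges overlapped, and the classes held 22 to 168 cells per mouse. The summed level of the 10 genes in B cells was 168, 132 and 185 CPM in WT and 211, 314 and 392 CPM in ArcSwe mice, which did not overlap. Gbp7, at 20.4, 14.6 and 42.2 against 48.8, 87.1 and 66.8 CPM, and Gbp2, on 4 to 20 UMIs per mouse, did not overlap in B cells either. In T and NK cells Gbp2 lay higher (39.9 to 50.1 against 27.9 to 37.4 CPM) and Gm4951 lower (0 to 4.25 against 6.97 to 16.8 CPM) in the ArcSwe mice, on 0 to 13 UMIs per mouse, while the summed level overlapped. These genes were chosen after their values were seen, and the share of all genes without overlap was not counted in these classes. B cells held 13.52 to 30.05% of the endothelial markers of barrier cells in WT and 22.94 to 30.06% in ArcSwe mice. Of the summed 10 genes they held 23.3 to 30.6% in WT and 24.0 to 46.8% in ArcSwe mice. T and NK cells held 6.50 to 17.0% and 8.49 to 26.2% of the markers. The part of endothelial transcripts in the lymphocyte values was not tested.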
